A study of Mus musculus with 24 samples.

Results

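The comparison described here sets cells that lost their own CTCF but overexpressed wild-type CTCF beside cells that were never treated. All 8 libraries of the CTCF lines came from E14, a mouse embryonic stem cell (ES cell) line, in which CTCF carries an auxin-inducible degron (AID). The untreated group was the overexpression control line without the auxin IAA, with 2 libraries. The wild-type group was the line that overexpressed wild-type CTCF, after 12 h of IAA, with 2 libraries. These 4 libraries were chosen by their titles from 24 libraries in 12 groups. The control line after 12 h of IAA and the line that overexpressed mutated CTCF after 12 h of IAA, with 2 libraries each, were read at the same sites. The growth protocol names serum-free medium with LIF, PD0325901 and CHIR99021 for every library, whereas the labels of a further set of 4 libraries give serum, at 0 h and 12 h of IAA. A further 4 libraries of CTCF-AID cells without IAA, named shluci in their titles, 2 in the Chd4 set and 2 in the Chd8 set, were read at the same sites. The labels do not say what the control line overexpressed, which change the mutated CTCF carries, whether a line was 1 clone, or whether the replicates came from separate cultures. Any p-value therefore measures only the spread between these samples, which may be technical. The groups of the main comparison differed in both the line and the IAA treatment, and effects of the 2 cannot be told apart.

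CTCF is a zinc-finger protein that binds a long DNA motif, halts the cohesin complex there and so anchors chromatin loops and insulates neighbouring domains. The degron recruits the bound protein to degradation when auxin is added, while a CTCF copy without the tag is spared. ATAC-seq uses a transposase that inserts adapters into open DNA, and a bound CTCF keeps a short stretch beside its motif open. A rescue by wild-type CTCF is thus read as the return of accessibility at CTCF motifs.

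Each library was a list of peaks with an interval, a summit, a fold over local background and a −log10 p. Sites were windows of 501 bp around the summits that recurred most often among the 8 lists, and a list held a site when one of its peaks touched it. A site in both untreated lists and neither wild-type list was a remaining loss, here called lost. A site in both wild-type lists and neither untreated list was new, and a site in all 4 lists was kept. A motif site had the CTCF consensus (14 bp, searched on both strands, allowing 1 mismatch) no more than 250 bp from its centre. There were 222499 sites, of which 11666 were motif sites. The absence of a peak means a signal below the limit of that list, not closed chromatin.

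The sequences that follow show kept, lost and new motif sites, each with 20 bases on either side of the motif, from RefSeq's GRCm38.p6 (mm10). The CTCF match is in capitals, and each sequence is read on the strand of the match. The first 3 sites were kept, yet absent from both lists of the control line with IAA. The next 4 were lost, and the last was new. Of the lost sites shown, the one in Ankrd33b was in both lists of the control line with IAA, and the others were in neither. The site in Cryzl1 falls outside the rule by which sites were named and was chosen after its values were seen.
Alg14 intron, kept, plus strand of chr3:121320966-121321019: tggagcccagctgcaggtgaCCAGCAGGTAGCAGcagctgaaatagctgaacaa
Near Olfr649, kept, plus strand of chr7:104199970-104200023: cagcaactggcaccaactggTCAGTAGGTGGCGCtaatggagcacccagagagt
Near Gm13506, kept, minus strand of chr2:39373295-39373348: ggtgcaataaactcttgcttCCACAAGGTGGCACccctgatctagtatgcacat
Ankrd33b intron, lost, plus strand of chr15:31309680-31309733: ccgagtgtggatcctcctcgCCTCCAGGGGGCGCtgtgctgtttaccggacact
Ros1 intron, lost, plus strand of chr10:52106302-52106355: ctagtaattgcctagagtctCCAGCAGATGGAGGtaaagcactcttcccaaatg
Itgav intron, lost, minus strand of chr2:83771568-83771621: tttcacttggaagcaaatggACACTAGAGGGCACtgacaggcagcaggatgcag
Cryzl1 intron, lost, plus strand of chr16:91694862-91694915: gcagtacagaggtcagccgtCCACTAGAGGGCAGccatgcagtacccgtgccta
Slc26a7 intron, new, minus strand of chr4:14526096-14526149: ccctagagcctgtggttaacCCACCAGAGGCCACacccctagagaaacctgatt

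Library facts bear on the values below. The untreated lists held 132912 and 139221 peaks and the wild-type lists 155087 and 131432. If the peaks were called by MACS2 without a control, the folds and p-values imply 36.1 and 33.7 M reads (M, mega) in the untreated and 35.8 and 30.8 M in the wild-type libraries. Median peak width was 373 and 342 bp in the untreated lists and 283 and 393 bp in the wild-type lists. Wild-type replicate 1 thus had the longest list and the shortest peaks of the 8. One chromosome 1 peak was present in untreated replicates 1 and 2 and wild-type replicate 1 and absent from wild-type replicate 2, so the main shares are also given for each wild-type library. No replicate pair shared more than 0.224% of its intervals exactly, so no list was a copy. As a check of the labels, peaks on coding exons of Ctcf away from its start numbered 3 and 2 in the wild-type lists and 0 and 0 in the untreated lists. The 2 lists of the mutated line held 2 and 2 such peaks and the control line with IAA 0 and 0. Among the 8 serum and shluci libraries read here, 1 such peak was found in serum 12 h replicate 2 and 1 in Chd8 set shluci replicate 1.

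Most of the accessible landscape of untreated cells was present in the wild-type line, and most of it was also present in the control line with IAA. Of the sites in both untreated lists, the 2 lists of the control line with IAA held 85.5% and 86.4%. The wild-type lists lacked 7.13% and 10.6% of these sites. Of 118083 sites in both untreated lists, 101490 (85.9%) were in both wild-type lists, 12243 were in 1 of them and 4350 were lost, a share of 3.68%. Of 119242 sites in both wild-type lists, 5878 were new, a share of 4.93%. With every list cut to the 120137 strongest peaks by −log10 p, 4.22% of sites were lost and 3.71% were new, so the order of the 2 shares depended on list length. Both lists of a pair shared 71.9% of their joint sites for the untreated replicates and 68.7% for the wild-type replicates. The 4 pairs of an untreated with a wild-type list shared 68.7% to 69.9%. At equal length these values were 74.9%, 70.6% and 70.9% to 72.6%. By this measure an untreated and a wild-type list differed about as much as the wild-type replicates did from each other, and more than the untreated replicates.

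CTCF motif sites made up more of the lost than of the kept sites. Of 7787 motif sites in both untreated lists, 5915 (76.0%) were in both wild-type lists, 1283 in 1 and 589 in neither. The share lost was 7.56% (Wilson 95% interval 6.997% to 8.17%), against 3.41% of the 110296 sites without the motif. Among new sites the order was the other way: 2.00% of the 6448 motif sites in both wild-type lists were new, against 5.10% of the 112794 others. At equal length 9.21% of motif sites and 3.85% of other sites were lost, and 1.59% and 3.84% were new. The intervals cover counting error only.

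Each wild-type library alone gave the same order at different sizes. Wild-type replicate 1 lacked 12.3% of the motif sites that both untreated lists held and 6.76% of the other sites. Wild-type replicate 2 lacked 19.4% and 9.99%. At equal list length the shares were 16.6% and 9.96% in replicate 1 and 19.1% and 8.45% in replicate 2. Between the untreated replicates there was no such excess: 13.2% of the motif sites of replicate 1 and 15.2% of those of replicate 2 were absent from the other list, against 15.1% and 17.6% of all sites.

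A wide peak can touch a window in one list and stop short of it in another. A peak of a wild-type list lay within 250 bp of the window's edge at 15.3% of the lost sites and at 6.45% of the lost motif sites. When a site counted as present only with a summit inside it and as absent only with no touching peak, 3732 of 105152 untreated sites (3.55%) were lost and 5231 of 106555 wild-type sites (4.91%) were new, close to the 3.68% and 4.93% of the touching rule. With a summit inside the window as the rule for both presence and absence, 4528 (4.31%) were lost and 6404 (6.01%) were new. With the rule of a summit for presence and no touching peak for absence, the motif shares were 7.60% lost against 3.25% of other sites, and 2.03% new against 5.08%.

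Lost sites were weaker in untreated cells than kept ones, a difference that the rule defining the classes favours by itself. A peak near the limit of a list can be missing from a further list without a change in accessibility. Loss by strength between the untreated replicates was not read. How much of the difference came from the rule was therefore not tested. Strength was the percentile of a peak's −log10 p within its list, averaged over both untreated lists. The median percentile was 20.3 for lost sites, 36.3 for lost motif sites and 67.8 for kept motif sites. New sites were likewise weak in the wild-type lists, with a median percentile there of 21.6, against 65.3 for kept sites. Up to percentile 10 in the untreated lists, 42.1% of motif sites and 30.6% of other sites were lost. Between percentiles 20 and 30 the shares were 25.4% and 7.87%, and between 50 and 60 they were 6.87% and 0.991%. Motif sites were thus lost more often than other sites of like strength in each of the 8 bands of 10 percentile points below 80. Above percentile 80, 0 of 1608 motif sites were lost, which allows a share of up to 0.187%, while 17 of 27150 other sites were.

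**Figure D1:**
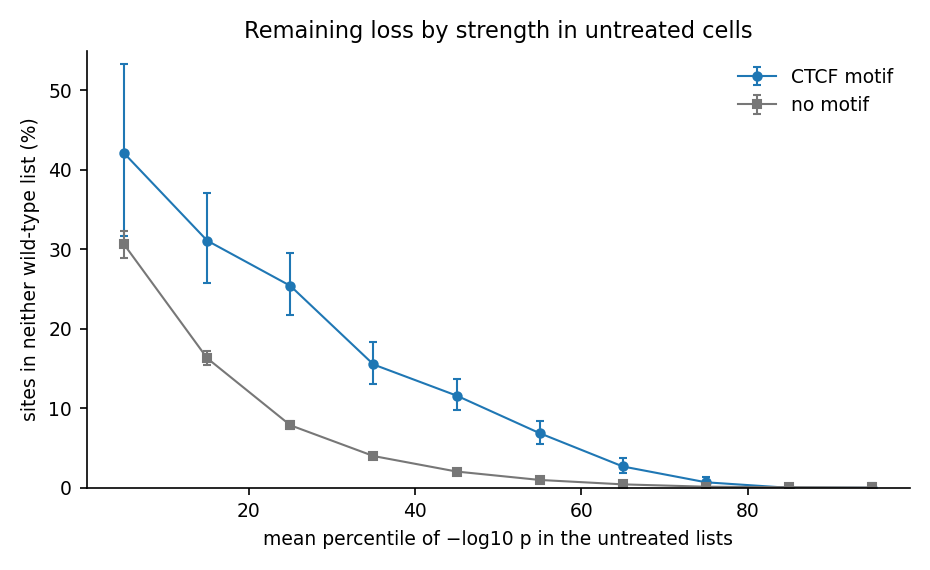
Share of sites in both untreated lists that neither wild-type list held (vertical axis, %) against the mean percentile of −log10 p in the untreated lists (horizontal axis, in bands of 10 plotted at their centre), for sites with (circles) and without (squares) a CTCF motif; bars are Wilson 95% intervals. Both curves fall with strength, and the motif curve lies above the other up to percentile 80 and reaches 0 beyond it.

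The share of motif sites lost differed by position. Lost shares were 2.22% of 992 motif sites within 500 bp of an annotated start, 6.53% of 582 exonic, 9.93% of 3243 intronic and 6.97% of 2970 intergenic ones. The corresponding shares of sites without motif were 1.03%, 4.43%, 3.98% and 3.55%. Promoters made up 3.74% of the lost motif sites and 15.5% of the kept ones. Median GC content over the window was 48.1% in lost and 51.3% in kept motif sites, with a median of 6 and 9 CpG dinucleotides.

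The number of mismatches differed little between lost and kept motif sites. The motif was free of mismatches in 26.0% of the lost and 25.04% of the kept motif sites. Of 1974 perfect matches 153 were lost (7.75%), and of 5813 matches with 1 mismatch 436 were lost. Sites with the motif within 50 bp of the centre were lost in 8.72% of cases, those with a more distant motif in 5.74%. Counting motif positions from 1, position 13 was A in 62.8% of lost and 51.4% of kept sites and G in 36.0% and 46.5%. Position 5 was C in 48.7% of lost and 57.2% of kept sites. The base just before the motif was C in 9.68% and 17.9%. These were the largest differences over the motif and 20 bases on either side, and bases outside the motif came close to the last 2 of them. Position 16 was A in 43.1% of lost and 35.3% of kept sites, and position 30 was T in 28.4% and 21.1%. Position 24 was G in 24.3% of lost and 31.1% of kept sites.

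The CTCF motif was found in 13.5% of lost, 5.77% of kept and 2.16% of new windows. The AP-1 motif TGANTCA, on both strands, was in 14.7% of lost, 14.96% of kept and 17.3% of new windows. The YY1 motif AAGATGGC was in 4.92%, 3.56% and 3.35%. The NRF1 motif TGCGCATGC was in 0.299%, 0.99% and 0.391%, rarer in lost and new than in kept windows. Permuted forms of the CTCF consensus, averaged over 10 permutations, were in 0.809%, 1.06% and 0.657%. A match is a description of the letters and not a bound site.

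A second set of sites, chosen without any of the libraries compared, was used to read what share of sites each library held. This is a share of calls and not a level of accessibility. In the serum set 49501 sites were in both 0 h lists, and 3724 of them (7.52%) were in neither 12 h list. The 1778 of these with a CTCF motif are called CTCF-dependent here, and the 2336 motif sites in all 4 serum lists are called CTCF-independent. Untreated cells held 84.0% and 83.5% of the dependent sites, and the control line with IAA 22.8% and 22.6%. The wild-type line held 74.9% and 66.8%, and the mutated line 64.2% and 57.7%. Both wild-type values thus lay below both untreated values, above both values of the mutated line and far above those of the control line with IAA.

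The mean was 83.8% ± 0.358 (SD, n = 2) in untreated cells and 70.9% ± 5.73 (SD, n = 2) in the wild-type line. The difference of -12.9 percentage points was larger than the combined replicate SD of 5.74 (two-sided exact permutation p = 0.333, the smallest that 2 against 2 libraries can give; adjusted p = 0.416 over 5 tests by Benjamini-Hochberg). At equal list length it was -15.7 points. Expressed against the gap between untreated cells and the control line with IAA, the wild-type line closed 78.9% of it (85.5% and 72.2% by replicate) and the mutated line 62.6% (67.9% and 57.3%). At equal list length these were 74.1% and 59.2%. The 2 lines did not keep this order in every library under other limits. With peaks of −log10 q of at least 10 the wild-type libraries closed 77.9% and 53.6% and the mutated ones 58.1% and 41.3%, and with peaks that cover 50% of the window 43.3% and 69.3% against 49.6% and 60.04%. Calls also returned at sites without a motif match. A match with 2 mismatches counts as no motif here, so such sites may still hold a weaker CTCF motif. Of the 1946 sites lost in serum that had no motif, untreated cells held 74.3% and 75.3%, the control line with IAA 40.5% and 38.5% and the wild-type line 67.2% and 61.8%. There the wild-type line closed 70.7% of the gap (78.4% and 63.05% by replicate), and 61.7% at equal list length. At the independent sites, untreated cells held 98.03% ± 0.0605 and the wild-type line 96.3% ± 0.212 (SD, n = 2 each), a difference of -1.69 points against a replicate SD of 0.220 (exact permutation p = 0.333, adjusted p = 0.416). There the control line with IAA held 92.6% and 91.5%, both below the untreated values, and the mutated line held 96.7% and 95.5%. The range of the mutated line at the independent sites included both wild-type values (96.5% and 96.2%). At equal list length it did not: the mutated line held 95.21% and 95.25%, between the wild-type values of 94.7% and 95.5%.

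**Figure D2:**
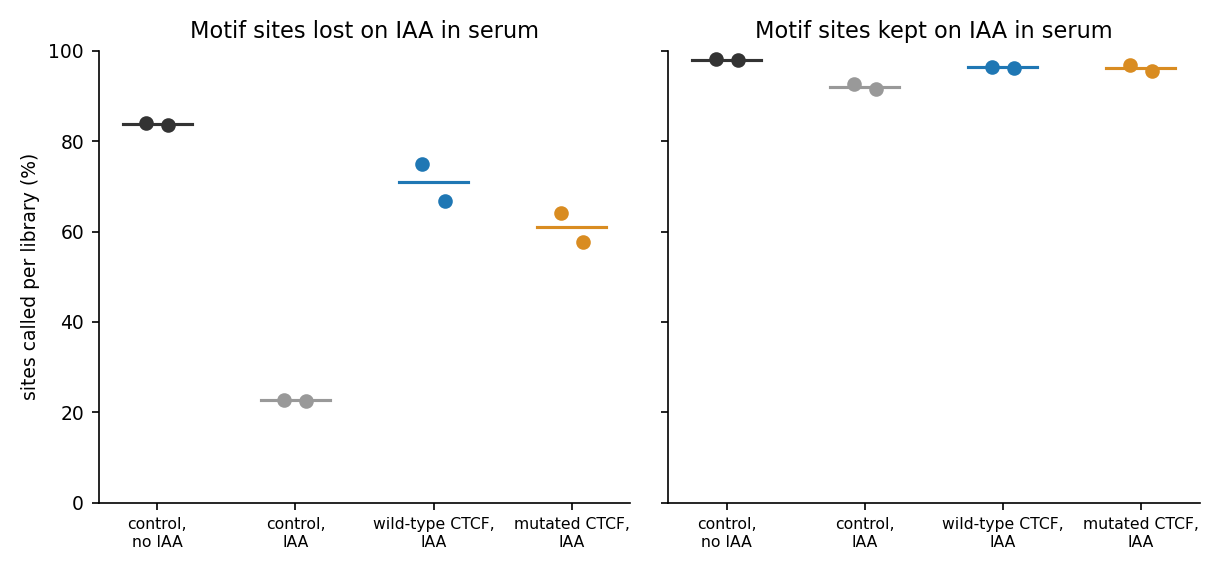
Percentage of motif sites held by each library (points, 2 per group) with the group mean (line), for sites lost after IAA in the serum set (left) and sites kept there (right). On the left the wild-type libraries, at 74.9% and 66.8%, sit between the untreated and the mutated-line libraries, and on the right the wild-type mean is 96.3%.

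Of the 1378 dependent sites in both untreated lists, 1010 were in both wild-type lists, 266 in 1 and 102 in neither, which is 7.40%. The stronger the site was in serum at 0 h, the more of the gap was closed. It was 70.3% up to serum percentile 25, 73.5% to percentile 50, 84.5% to percentile 75 and 95.2% above. In that top class 0 of 105 sites in both untreated lists were in neither wild-type list, which allows up to 2.86%. The mutated line rose likewise over these classes, with 51.7%, 55.9%, 69.5% and 84.1% of the gap closed. A strong site can pass a list's limit after a partial return, so these shares give no level of accessibility. In the wild-type line the gap closed was 84.7% at the 590 sites without mismatch and 76.0% at the 1188 with 1 mismatch. In the mutated line these were 66.7% and 60.6%.

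Libraries that played no part in defining the lost and kept classes are those of the control line with IAA, the mutated line, the serum set and the shluci libraries of the Chd4 and Chd8 sets. Of the 589 lost motif sites, the lists of the control line with IAA held 7.30% and 5.09%, against 68.7% and 68.1% of the 5915 kept motif sites. The mutated line held 23.9% and 23.4% of the lost and 92.3% and 88.4% of the kept motif sites. The serum set held 40.9% and 32.4% of the lost motif sites at 0 h and 5.26% and 7.30% after 12 h of IAA. Over all 7787 motif sites in both untreated lists, the control line with IAA held 55.7% and 54.8% and the mutated line 80.5% and 76.0%. The serum set held 68.2% and 61.4% of these at 0 h and 37.1% and 40.9% after 12 h. Kept sites had to be called in 2 libraries with IAA and lost sites absent from them. That choice can by itself widen the contrast in other libraries with IAA. Of the lost motif sites the shluci lists held 39.6% and 21.6% in the Chd4 set and 46.5% and 54.3% in the Chd8 set, against 66.0% and 55.3%, and 74.6% and 82.5%, of the kept motif sites. Each serum 0 h and shluci library thus held more of the lost motif sites than any IAA library without added CTCF did.

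Of the kept motif sites the serum set held 74.7% and 68.7% at 0 h and 45.9% and 50.4% after 12 h. The 2 classes differ in strength, so they were also read at untreated percentiles 20 to 50. There the control line with IAA held 6.52% and 4.25% of the lost motif sites, the serum set 42.8% and 34.6% at 0 h and 5.10% and 7.37% after 12 h. Of the kept motif sites in the same range the control line with IAA held 53.3% and 53.9%, the serum set 51.3% and 44.0% at 0 h and 23.5% and 29.9% after 12 h.

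Of the 3761 lost sites without motif, the control line with IAA held 34.2% and 33.1%, against 93.2% and 94.2% of the kept sites without motif. The mutated line held 41.1% and 37.1%, against 97.0% and 94.5%. At serum 0 h 17.3% and 13.4% of the lost sites without motif were held and after 12 h 17.1% and 20.95%, so the ranges overlapped. The kept sites without motif had 49.04% and 43.97% at 0 h and 51.95% and 56.99% after 12 h. Of the new sites without motif, the control line with IAA held 41.3% and 43.9%, and the mutated line 59.5% and 49.1%. Over all sites in both untreated lists these lines held 85.5% and 86.4%, and 91.6% and 88.1%. The serum set held 7.58% and 6.05% of the new sites without motif at 0 h and 11.01% and 14.4% after 12 h. Of all sites in both untreated lists it held 46.6% and 41.6% at 0 h and 47.1% and 51.98% after 12 h, and the 12 h lists were longer than the 0 h lists.

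**Figure D3:**
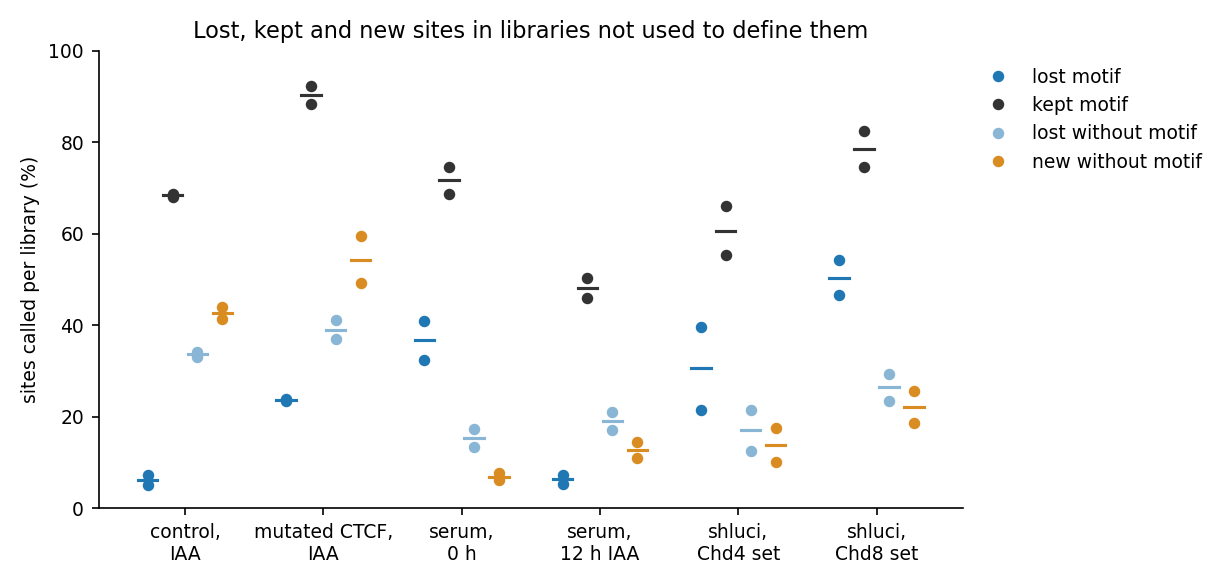
Percentage of lost motif, kept motif, lost non-motif and new non-motif sites held by each library outside the comparison (points, 2 per group; line, mean). Lost motif sites lie between 5.09% and 7.30% in the IAA libraries without added CTCF and between 21.6% and 54.3% in the serum 0 h and shluci libraries.

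Over whole lists, peaks with the CTCF motif within 250 bp of the summit made up 6.62% ± 0.0782 of the untreated and 5.36% ± 0.115 of the wild-type peaks (SD, n = 2 each). The difference of -1.26 points exceeded the replicate SD of 0.139 (exact permutation p = 0.333, adjusted p = 0.416). The share of peaks within 500 bp of a start was 13.2% ± 0.318 and 12.9% ± 0.842 (SD, n = 2 each), a difference of -0.334 points within the replicate SD (exact permutation p = 1.0, adjusted p = 1.0). Without wild-type replicate 1 its sign changed, to 0.261 points.

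The position of the summit shows whether the accessible stretch sat where CTCF binds. Of motif peaks, 61.8% and 62.8% in untreated cells and 61.6% and 53.9% in the wild-type line had the summit within 50 bp of the motif centre. The control line with IAA had 36.9% and 37.7% and the mutated line 56.3% and 51.9%. Wild-type replicate 1 was level with the untreated libraries and replicate 2 was below them, and the difference of -4.53 points was within the replicate SD of 5.46 (exact permutation p = 0.333, adjusted p = 0.416). At the 1447 kept motif sites in neither list of the control line with IAA, the share was 75.7% and 76.6% in untreated cells and 78.8% and 71.4% in the wild-type line. At the 3524 kept motif sites in all 8 lists, it was 45.3% and 45.3%, 45.3% and 40.5%, and 42.3% and 39.2%, with 31.2% and 33.6% in the control line with IAA.

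**Figure D4:**
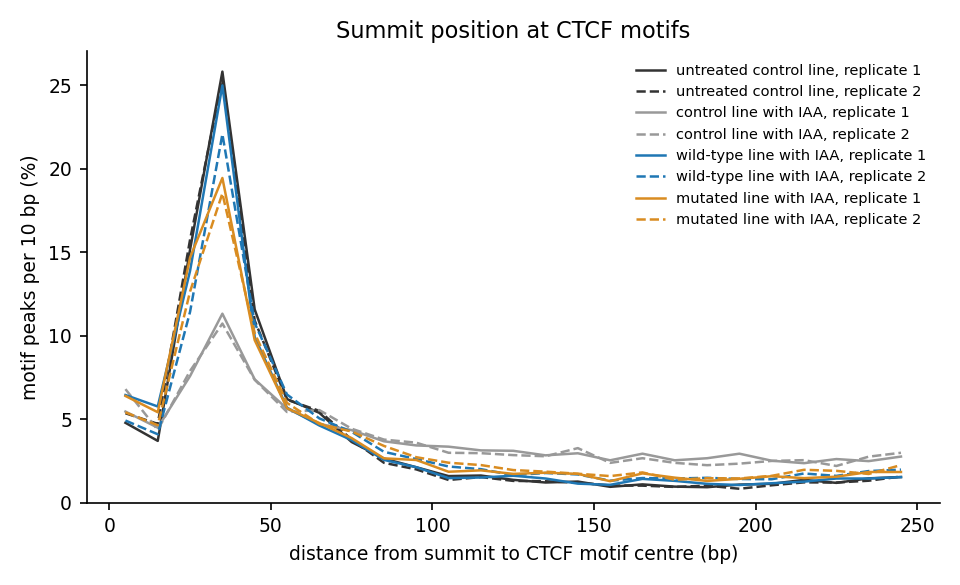
Distance from the peak summit to the centre of the CTCF motif (horizontal axis, bp) against the percentage of motif peaks per 10 bp (vertical axis) for the 8 libraries, with replicate 2 dashed. All lists peak between 30 and 40 bp from the motif, highest in untreated cells and wild-type replicate 1 and lowest in the control line with IAA.

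Single sites show both outcomes. The Alg14 intron (Alg14 is a subunit of the enzyme for an early step of N-glycan synthesis) had a peak of 15.5-fold and 17.8-fold over background in untreated cells and 19.6-fold and 19.4-fold in the wild-type line. It had no peak in the control line with IAA. Folds are the authors' values within a list and set no level between libraries. The site near the olfactory receptor gene Olfr649 had 18.2-fold and 19.1-fold in untreated cells and 17.5-fold and 15.3-fold in the wild-type line. The site near Gm13506 had 18.9-fold and 19.7-fold, and 16.8-fold and 15.05-fold. All 3 were in both lists of the mutated line. The Alg14 site was in none of the serum 0 h and shluci lists, which are from cells without IAA, while the Olfr649 site was in both serum 0 h and 4 shluci lists and the Gm13506 site in both serum 0 h and 3 shluci lists.

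Among the lost motif sites, the intron of Ros1, which encodes a receptor tyrosine kinase, had 10.8-fold and 11.7-fold in untreated cells. The nearest wild-type peaks were 76177 and 78029 bp away. It was in neither list of the control line with IAA, both of the mutated line, both serum 0 h and neither serum 12 h list, and 4 of 4 shluci lists. The intron of Itgav, the integrin alpha V gene, had 9.43-fold and 12.9-fold in untreated cells and no peak in any other list of the CTCF lines. It was in 4 of 4 shluci lists. The perfect match in Cryzl1, where Atp5o overlaps, had 11.3-fold and 10.5-fold in untreated cells, with the nearest wild-type peaks 5360 and 5388 bp away, and was in both lists of the mutated line and both serum 0 h lists. The Ankrd33b intron had 12.4-fold and 11.1-fold in untreated cells. Unlike the others it was in both lists of the control line with IAA and in neither serum 0 h list.

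Among the new motif sites, the intron of Slc26a7, an anion transporter gene, had 11.8-fold and 9.84-fold in the wild-type line, and was in 1 list of the control line with IAA and both of the mutated line. An exon of Ank2, the gene of a membrane adaptor, had 8.58-fold and 7.23-fold in the wild-type line and no peak in the other 6 lists of the CTCF lines. The new site that stood out most had no motif. At chr13:66680705-66681205, at the start of Gm40988 within Zfp640, the wild-type lists had 53.7-fold and 31.3-fold. No other library read here had a peak there, and the nearest untreated peaks were 11970 and 13842 bp away.

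The rule named 30 lost or new sites by strength, and 10 of them had a summit inside the window in both lists that held them. The other named sites were windows touched by the flank of a peak in at least 1 list. Where neither list had a summit inside, which was so at 12 sites, a peak of a list that lacked the site lay at most 325 bp away. These 12 are the lost windows at or near Adgrl3, Gm13998, Slc16a7, Srgap1, Tuba4a and Tlx2 and the new windows at or near Gm45112, Stxbp2, Zfp712, Lsamp, Phf3 and Zbtb24.

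Promoters were almost all kept. Of 14802 sites within 500 bp of a protein-coding start in both untreated lists, 14356 were kept and 85 (0.574%) were lost, and 105 were new. A lost promoter with a summit in both untreated lists was that of Morc1, a germline gene that represses transposons, at 5.52-fold and 6.80-fold. New promoters with a summit in both wild-type lists were those of Klhdc10 (7.63-fold and 10.4-fold), Aadacl4 (10.2-fold and 5.79-fold) and Nr6a1, an orphan nuclear receptor gene (8.18-fold and 5.76-fold). Aadacl4 and Nr6a1 promoters were also in both lists of the control line with IAA, and an untreated peak lay 248 and 246 bp from the Nr6a1 window.

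Promoter sites of the gene lists were lost or new at 3 genes, among 94 kept, lost or new sites at the starts of all listed genes. Over all protein-coding promoters 0.574% of untreated sites were lost and 0.713% of wild-type sites were new. The totals of genes include those without any site at a start. Of 17 genes of CTCF and the cohesin machinery, 16 had a kept promoter site and none a lost or new one. Of 14 ES cell marker genes, 13 had a kept site, while the site at Pou5f1, which encodes the pluripotency factor OCT4, was in neither untreated and both wild-type lists. Kept promoter sites were found at 7 of 9 primed epiblast, 7 of 8 primitive endoderm, 6 of 8 neural progenitor and 4 of 10 fibroblast marker genes, with no lost or new site. Of these genes 7, 8, 7 and 6 had any site at a start. Among 9 trophectoderm markers, 7 had a kept site and Krt8, a keratin gene, had a lost site, which was not lost at equal list length. Among 16 genes at imprinted or boundary loci, 14 had any site at a start, 9 had a kept site and Mest, an imprinted gene, had 1 lost site. Of 11 targets of the aryl hydrocarbon receptor, 8 had any site at a start, 5 had a kept site and none a lost or new one. The promoter site of the remodeller gene Chd8 was kept, while that of Chd4 was in both untreated lists and in wild-type replicate 1 but not in replicate 2, and was lost at equal list length.

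Lost and new sites were found on every autosome and on X, but not evenly, and 0 of the 31 untreated sites on Y were lost. Chromosome 6 had the highest share lost (5.06%, and 11.6% of its motif sites) and the lowest share new (3.64%) among the autosomes and X. At equal length its shares were 6.03% and 2.57%. Each wild-type library gave the same direction, with 9.13% and 12.5% of the untreated sites of chromosome 6 absent against 7.13% and 10.6% over all chromosomes, and in the mutated line 6.98% of them were absent from both lists, against 4.00% to 6.14% on the other autosomes and X. In the control line with IAA that share was 8.98% on chromosome 6 and 6.97% to 8.93% on the others. Chromosomes 16 and 17 had the reverse, with 3.04% and 2.86% lost and 6.01% and 5.81% new. Copy number of the chromosomes was not tested.

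**Figure D5:**
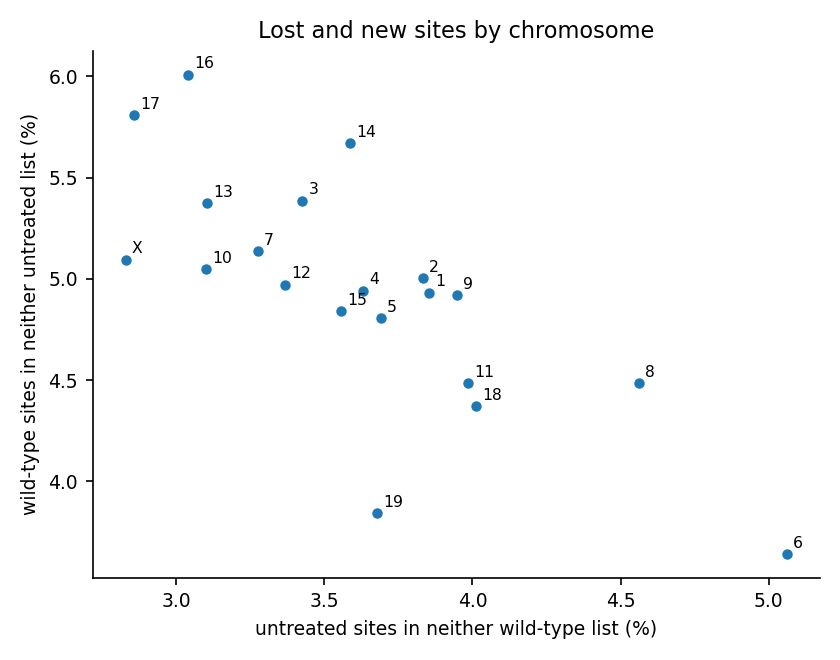
Share of untreated sites that were lost (horizontal axis, %) against share of wild-type sites that were new (vertical axis, %), 1 point per chromosome, without Y; neither axis starts at 0. Chromosome 6 lies alone at the lower right, with 5.06% lost and 3.64% new.

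Runs of neighbouring sites with the same outcome were rare. Among sites in both untreated lists, 4 runs of 3 consecutive lost sites were found, near Gm37017, Pzp, Gm48925 and Tle4. Of their 3 sites, 1, 0, 2 and 2 in that order were lost also at equal list length. Among sites in both wild-type lists there were 19 runs of at least 3 new sites. The run at chr4:131195812-131242791, near Gm25261, was the only run, lost or new, whose 3 sites all had the same outcome at equal list length, and none of them had a CTCF motif.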

How the data were processed

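The 4 libraries of the comparison, and the other lists read at their sites, are peak lists that the authors deposited. Per the submitters' processing notes, Trim Galore, Bowtie2, MACS2 and deepTools were used with build mm10, and versions are not given in the sources used here. The deposited values per peak are a fold (ratio of summit signal to local background), a −log10 p and a −log10 q, made within each list and not comparable as levels between lists. Reads and counts were not used here, so depth is only implied.

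Sites were 501-bp windows around summits, taken without overlap from the summit found within 100 bp in the largest number of the 8 lists downwards. Calls came from intervals and summits. Gene places came from GENCODE vM21 and sequences from RefSeq GRCm38.p6. Site windows of the serum set were built from its own 4 lists. Shares were tested by exact permutation, two-sided. No test per site was run. Sites were named by strength among those lost or new both in the deposited lists and at equal length, with lists of genes and runs of at least 3 sites. The site counting was tested on simulated lists. Alternatives were equal list length, −log10 q of at least 10, 50% cover, summit inside, merged intervals, other motif limits, each library left out, and a summit reading added after the data were seen. The libraries compared, the sites and the gene lists were chosen with earlier results of these data known. Python 3.11.15, NumPy 2.4.6, pandas 2.3.3 and SciPy 1.17.1 were used.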

Additional observations from a re-analysis of the deposited data

How the results depend on the processing

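The direction of the motif results held under every alternative run. The excess of motif over other sites in percent lost was 4.15 points as reported, 5.36 at equal list length, 7.13 with 50% cover and 8.71 with −log10 q of at least 10. The difference in percent new was -3.10 points as reported and -2.25, -2.53 and -2.65 in the same order. The number of lost sites fell to 2791 with −log10 q of at least 10. The number of new sites was 3845 at equal list length, 3137 with 50% cover and 3177 with −log10 q of at least 10. Leaving out 1 library at a time gave 8415 to 14134 lost and 11252 to 21912 new sites, since fewer lists then had to agree. The share lost was then 7.13% to 10.6% and the share new 9.44% to 14.3%, against 3.68% and 4.93% as reported. The excesses were 4.54 to 9.36 and -7.34 to -4.84 points. The share of the gap closed was 65.7% with −log10 q of at least 10, 56.3% with 50% cover, and 72.2% to 85.5% when 1 library was left out. The difference between wild-type and untreated libraries at the dependent sites was -20.3 points with −log10 q of at least 10 and -23.1 with 50% cover. At the independent sites it was -3.30 and -4.13 points in the same order. The promoter share changed sign without wild-type replicate 1, to 0.261, with -0.929 as the lowest value on leaving out a library. The cause was not tested in these cases.

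The naming rule fixed the equal-length calls of the named sites. Of these 33 sites, 30 gave the same value with −log10 q of at least 10, 13 with a summit inside the window, 13 with merged intervals and 11 with 50% cover, and none reversed. The replicate numbers are shared only as labels. With the replicate number as a block, the differences were -12.9, -1.69, -1.26 and -4.53 points with a two-sided exact sign-flip p of 0.5 each, the smallest that 2 pairs can give, and -0.334 points for the promoter share with a p of 1.0. Depth limits weak sites: a site below a list's limit cannot be told from a closed one.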
